A study of Mus musculus with 4 samples.

Results

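Lactate handling was followed through 6 genes in V6.5 mouse embryonic stem cells: the lactate dehydrogenase genes Ldha and Ldhb, the monocarboxylate transporter genes Slc16a1 and Slc16a3, and the genes of the ancillary proteins Bsg and Emb. They are 6 of the 45706 genes in the count table, taken by symbol, and all 6 were among the 18005 genes with enough counts to be tested. The 2 groups were cells after 24 h of doxycycline, labelled KLF KO, and cells at 0 h, labelled KLF WT, with 2 biological replicates (A and B) in each. Both groups are described as V6.5 cells infected with a lentivirus that carries Cas9 and GFP under the doxycycline-responsive TRE3G promoter, puromycin resistance and rtta under PGK, and guide RNAs for either KLF4 or the set of KLF2, KLF4 and KLF5. Infected cells were selected with puromycin and grown as clonal populations on irradiated feeder cells, in 15% serum and LIF at 1000 U/ml together with inhibitors of MEK (1 µM) and GSK3 (3 µM). All titles carry the abbreviation TKO, the 24 h titles name a KLF4 knockout and the 0 h titles name WT ESCs, so the guides in each library, if any at 0 h, are uncertain. The effects of the drug, of Cas9, of losing a KLF factor and of elapsed time cannot be told apart in the 24 h to 0 h contrast.

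Lactate dehydrogenase is a tetramer that interconverts pyruvate and lactate while it converts NADH to NAD+ or back. Its LDHA subunit is usually linked to making lactate from pyruvate and its LDHB subunit to using lactate. Lactate crosses the plasma membrane together with a proton through the monocarboxylate transporters MCT1, encoded by Slc16a1, and MCT4, encoded by Slc16a3, and MCT4 is typical of cells that export much lactate. Neither transporter reaches the membrane alone: basigin (Bsg, also called CD147) and embigin (Emb), related single-pass proteins of the immunoglobulin superfamily, escort them. Mouse embryonic stem cells are known for active glycolysis.

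The genes were chosen from the counts of these same libraries, with the 24 h to 0 h differences of Ldha, Ldhb, Slc16a3 and Emb already known. Their differences are therefore given as a description, with a standard error (SE) and no p-value. The same holds for the ratios between them, and 2 libraries against 2 could not give an exact permutation p below 0.33.

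The promoters of the 4 genes that moved are shown. That choice follows their 24 h to 0 h differences, so the short motifs searched in them are a description only. Each is a RefSeq window on GRCm38.p6, from 250 bases before to 50 bases after the annotated start, written 5′ to 3′ on the strand of the gene. Capitals mark the core of the hypoxia response element (ACGTG or GCGTG) and the E-box CACGTG, which MYC-family factors can bind, on either strand. An E-box holds ACGTG on both strands, so overlapping matches were joined and counted as 1 stretch. The Ldha window lies at chr7:46845554-46845853 (+), the Slc16a3 window at chr11:120948817-120949116 (+), the Ldhb window at chr6:142507908-142508207 (-) and the Emb window at chr13:117220323-117220622 (+).
Ldha: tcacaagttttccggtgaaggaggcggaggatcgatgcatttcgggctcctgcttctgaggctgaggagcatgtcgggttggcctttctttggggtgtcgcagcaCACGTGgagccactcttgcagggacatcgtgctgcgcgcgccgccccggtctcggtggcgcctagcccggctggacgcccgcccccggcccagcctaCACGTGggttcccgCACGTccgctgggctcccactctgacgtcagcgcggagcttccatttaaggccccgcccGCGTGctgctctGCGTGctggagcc
Slc16a3: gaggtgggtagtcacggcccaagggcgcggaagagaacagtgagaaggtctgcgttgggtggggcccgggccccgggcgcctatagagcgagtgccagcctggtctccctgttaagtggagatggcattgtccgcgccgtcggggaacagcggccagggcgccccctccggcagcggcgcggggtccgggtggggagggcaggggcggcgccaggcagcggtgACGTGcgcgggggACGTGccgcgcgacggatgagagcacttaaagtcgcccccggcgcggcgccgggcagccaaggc
Ldhb: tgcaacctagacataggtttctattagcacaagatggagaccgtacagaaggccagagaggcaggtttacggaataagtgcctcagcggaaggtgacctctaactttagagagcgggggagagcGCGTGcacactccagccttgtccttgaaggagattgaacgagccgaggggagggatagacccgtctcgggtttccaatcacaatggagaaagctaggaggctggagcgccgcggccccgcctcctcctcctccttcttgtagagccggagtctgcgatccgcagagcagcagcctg
Emb: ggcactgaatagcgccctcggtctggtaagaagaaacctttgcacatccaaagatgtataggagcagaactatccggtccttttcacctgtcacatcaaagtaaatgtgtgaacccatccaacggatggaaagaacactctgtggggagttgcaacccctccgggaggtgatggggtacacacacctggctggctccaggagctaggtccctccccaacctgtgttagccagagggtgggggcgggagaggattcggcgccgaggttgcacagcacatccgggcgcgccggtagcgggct

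The Ldha window held 5 separate hypoxia response core stretches, 2 of them E-boxes. Of all 32851 RefSeq promoter windows of this length, 0.767% held 5 or more such stretches, 43.8% held at least 1 and 7.15% held an E-box. A second annotated Ldha start had 2 stretches in its window. Slc16a1, whose transcript differed little between the groups, had 4 stretches, a count that 2.44% of windows reached or passed, with 1 E-box among them. Slc16a3 had 2 stretches and Ldhb had 1, and the Emb window had none. The Ldha, Slc16a3 and Emb windows begin inside the gene spans given below, and no window at those outer starts was searched. The core GGGNGTGG, a form of the GC-rich motif bound by KLF factors, was searched on both strands too. It stood once in the Slc16a1 window and once in the second Ldha window, and 17.6% of all windows held it. It was not among the letters of the windows printed above. Windows matched 5 of the 6 genes, 6 windows in all. A match describes the letters of a window and says nothing of binding in these cells.

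The libraries held 46031578 to 52412844 counts, so that 3 counts, the limit that a count of 0 allows, stood for 0.0572 to 0.0652 CPM (counts put on one common library size). Intervals and floors of this kind cover counting error only. Of the genes tested, 6.8% were called different at 24 h (1225 genes, Benjamini-Hochberg adjusted p under 0.05 in the quasi-likelihood test of edgeR), 4.15% higher and 2.65% lower. The 0 h libraries differed more from each other than the 24 h libraries did: over genes, the log2 difference of replicate A to replicate B had an SD of 0.361 at 24 h and 0.494 at 0 h. The 0 h replicate A also stood apart by base composition. Its deviation from the mean of the 4 libraries correlated with gene GC content at r = 0.463 across 17927 genes, which are not independent, and r was between -0.214 and -0.156 in the others. With GC content and length fitted, 35.3% of the genes called were higher at 24 h, against 61.1% without. The transcripts named for the guides were not called by edgeR: Klf2 averaged 149.9 ± 3.67 CPM at 24 h and 177.7 ± 76.7 CPM at 0 h (adjusted p = 0.58, edgeR), Klf4 averaged 240.1 ± 6.17 CPM at 24 h and 294.2 ± 52.6 CPM at 0 h (adjusted p = 0.223, edgeR), and Klf5 averaged 220.8 ± 7.23 CPM at 24 h and 362.6 ± 96.5 CPM at 0 h (adjusted p = 0.0567, edgeR; SD, n = 2 throughout). A frameshift can leave the level of its transcript as it was, so these values do not check the labels.

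Among the 6 genes, 2 were called lower at 24 h (Ldha and Slc16a3), 2 were called higher (Ldhb and Emb) and 2 were not called (Slc16a1 and Bsg). The 24 h libraries did not overlap the 0 h libraries in any of the 6, nor in 58.8% of all genes tested. Since the genes were chosen on this contrast, nothing is read from these counts. The dehydrogenase genes went in opposite directions, and each of the other 2 pairs held 1 gene that was called and 1 that was not.

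**Figure D1:**
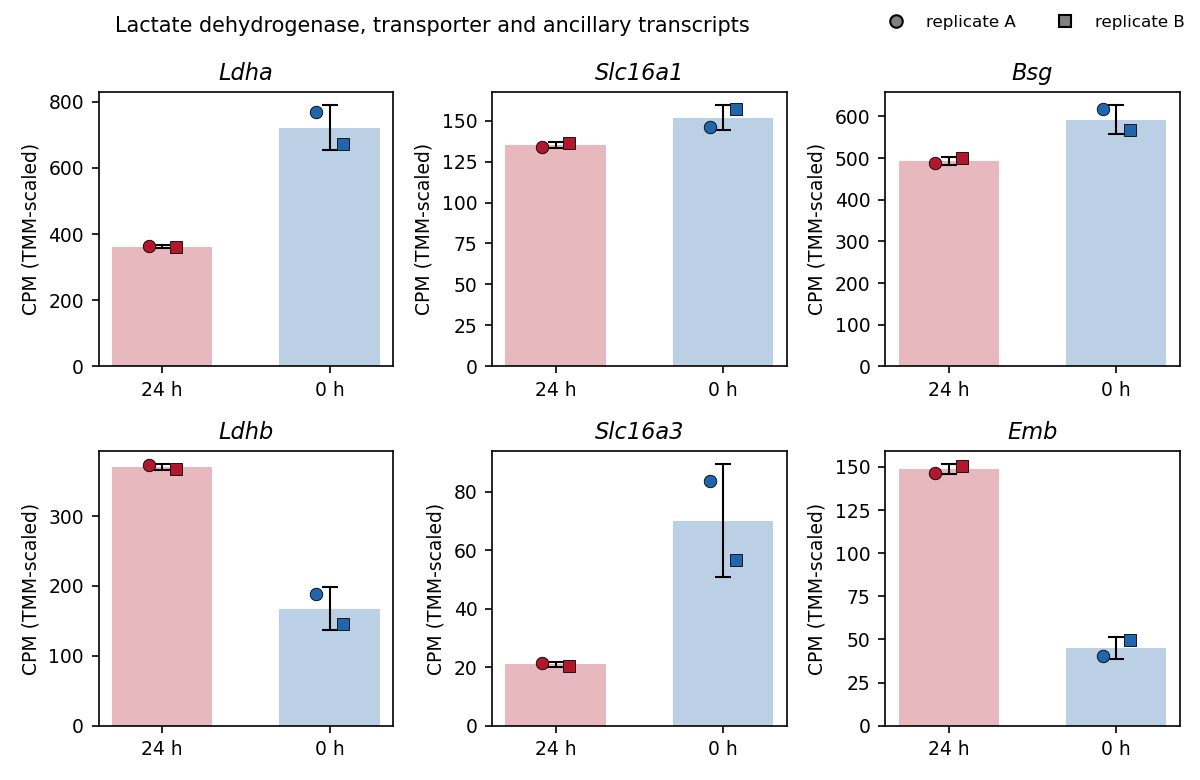
TMM-scaled CPM (vertical axes from 0) of the 6 genes in 24 h and 0 h cells. Bars are means, error bars are SD (n = 2) and points are libraries; Ldha and Slc16a3 are lower at 24 h, Ldhb and Emb are higher, and Slc16a1 and Bsg differ least, with no overlap of the groups in any panel.

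Ldha (ENSMUSG00000063229, chromosome 7, 46841475 to 46855627, + strand), which encodes the subunit linked to lactate production, had 364.7 and 359.8 CPM in the 24 h libraries A and B, against 769.9 and 672.9 CPM in the 0 h libraries A and B. Both 24 h libraries were at about the same level, below both 0 h libraries. The means were 362.3 ± 3.52 CPM at 24 h and 721.4 ± 68.6 CPM at 0 h (SD, n = 2). The log2 fold change was -0.99 (SE 0.10). Over all genes tested, 2.6% had a log2 fold change at or below this, and the median of all was -0.007. In bulk RNA, fewer cells that express a gene and less of its RNA per cell cannot be told apart, here and for every gene below.

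Ldhb (ENSMUSG00000030246, chromosome 6, 142490249 to 142507957, - strand), which encodes the other subunit, had 372.8 and 367.1 CPM at 24 h (A, B), against 188.8 and 145.5 CPM at 0 h (A, B). Both 24 h libraries were above both 0 h libraries. The log2 fold change was 1.15 (SE 0.14), between means of 369.9 ± 3.97 CPM at 24 h and 167.2 ± 30.6 CPM at 0 h. The opposite shifts inverted the ratio of the pair. Per kilobase of exon, Ldha stood to Ldhb at 0.464 and 0.465 in the 24 h libraries, against 1.93 and 2.19 in the 0 h libraries. The log2 ratio changed by -2.15, a 4.43-fold lower ratio, with an SD of 0.001 over the 24 h libraries and 0.128 over the 0 h libraries. Ldha made up 31.7% of the pair in each 24 h library, against 65.9% and 68.7% in the 0 h libraries. With the length of the longest transcript in place of all exons, Ldha's share was 41.3% in each 24 h library and 74.5% and 76.9% in the 0 h libraries.

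The summed level of the pair overlapped between the groups. It was 347.6 and 342.5 CPM per kb at 24 h and 352.9 and 296.0 CPM per kb at 0 h. Both 24 h values lay inside the range of the 0 h values. With the longest transcript, the sum was 486.8 and 479.8 CPM per kb at 24 h, against 569.0 and 482.4 CPM per kb at 0 h. The groups overlapped there too, but 24 h replicate B lay below both 0 h libraries. The composition of the pair differed with either length. The direction of the difference between mean sums depended on the length, and no difference in the sum was resolved with these libraries.

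Both genes have processed copies in the genome, and a read shared with a copy may have been split or dropped in the authors' counting. Of the 50-base windows in annotated transcripts, 9.26% for Ldha and 20.99% for Ldhb also occur in another gene, and Slc16a1, Slc16a3 and Bsg had no such window. The copy Gm11814, which shares windows with Ldha, had 16.87 and 16.60 CPM at 24 h, against 31.11 and 33.64 CPM at 0 h. The copy Gm5514, which shares windows with Ldhb, had 45.32 and 42.16 CPM at 24 h, against 26.27 and 16.25 CPM at 0 h. Each of these copies thus had the same direction as its parent, and each was far lower in CPM. Ldha-ps2, another copy of Ldha, had 0.8855 and 1.004 CPM at 24 h, against 2.036 and 1.728 CPM at 0 h. The Ldha copy Gm5987 had 14 counts over the 4 libraries, and the copies Gm5452 and Gm9247 were not in the count table. The part of parent reads in the counts of the copies was not tested.

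**Figure D2:**
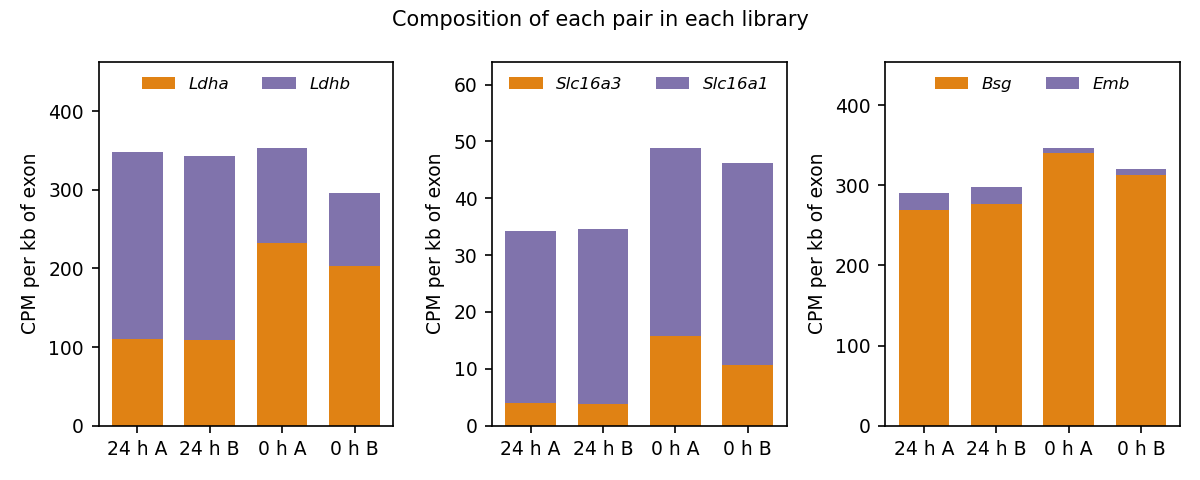
Level of each pair per library, in TMM-scaled CPM per kilobase of exon (vertical axes from 0), with the genes of a pair stacked; 24 h libraries stand left of 0 h libraries. Ldha's share is 31.7% in both 24 h libraries and 65.9% and 68.7% in the 0 h libraries, while the height of that stack overlaps between the groups.

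The transporters differed in one member. Slc16a3 (MCT4; ENSMUSG00000025161, chromosome 11, 120948480 to 120960868, + strand) had 21.57 and 20.39 CPM at 24 h (A, B), against 83.77 and 56.54 CPM at 0 h (A, B). Both 24 h libraries were below both 0 h libraries, and the 0 h libraries were themselves far apart. The log2 fold change was -1.74 (SE 0.19), between means of 20.98 ± 0.84 CPM at 24 h and 70.16 ± 19.3 CPM at 0 h, and 0.4% of all genes had a change at or below it. Its size depended on the 0 h library: it was -1.43 when 0 h replicate A was left out and -2.00 when 0 h replicate B was left out. Slc16a3 has a GC content of 56.63%, and with GC content and length fitted its log2 fold change was -1.61.

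Slc16a1 (MCT1; ENSMUSG00000032902, chromosome 3, 104638668 to 104658462, + strand) had 133.7 and 136.5 CPM at 24 h, against 146.3 and 157.2 CPM at 0 h. The groups did not overlap, but the log2 fold change was only -0.17 (SE 0.10) and was not called. It was called lower with GC content and length fitted (-0.34), where 29.1% of all genes were called, against 6.8% without. It was also called lower when either 0 h library was left out (-0.22 leaving out A, -0.12 leaving out B). A larger share of all genes was called there too, so the call depended on the setting and is not read further. The ratio of Slc16a3 to Slc16a1 per kb was 0.134 and 0.124 at 24 h, against 0.477 and 0.299 at 0 h. Its log2 change was -1.55, with an SD of 0.079 over the 24 h libraries and 0.474 over the 0 h libraries, and it was -1.27 with GC content and length fitted. Slc16a3 was the minor transporter in every library, at 11.8% and 11.1% of the pair at 24 h and 32.3% and 23.0% at 0 h. The sum of both was 34.27 and 34.67 CPM per kb at 24 h, against 48.81 and 46.14 CPM per kb at 0 h, with no overlap.

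The ancillary proteins diverged as well. Emb (embigin; ENSMUSG00000021728, chromosome 13, 117208536 to 117274415, + strand) had 146.6 and 150.7 CPM at 24 h (A, B), against 40.30 and 49.40 CPM at 0 h (A, B). Both 24 h libraries were far above both 0 h libraries. The log2 fold change was 1.73 (SE 0.13), between means of 148.6 ± 2.89 CPM at 24 h and 44.85 ± 6.43 CPM at 0 h, and it was 1.59 with GC content and length fitted. Emb overlaps Gm17509 on the opposite strand over 686 of its 6906 exon bases. The strand setting of the counting is not given in the sources used here, and Gm17509 itself had 27 counts over the 4 libraries. Of the 50-base windows of Emb, searched on either strand, 14.15% also occur in another gene (9.24% in Gm17509 and 4.68% in Rnf7). Rnf7 stood at 104.2 and 106.7 CPM at 24 h and 97.77 and 116.9 CPM at 0 h, groups that overlap.

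Bsg (basigin; ENSMUSG00000023175, chromosome 10, 79704491 to 79711969, + strand) had 487.2 and 501.0 CPM at 24 h, against 617.2 and 567.8 CPM at 0 h. The log2 fold change was -0.26 (SE 0.10) and was not called. It was called lower when either 0 h library was left out (-0.20 leaving out A, -0.33 leaving out B). At those settings a larger share of all genes was called too. Basigin stayed the more abundant ancillary transcript in every library. The ratio of Bsg to Emb per kb was 12.7 in each 24 h library, against 58.3 and 43.8 in the 0 h libraries, a log2 change of -2.00 with an SD of 0.001 over the 24 h libraries and 0.293 over the 0 h libraries. Bsg was 92.7% of the pair in each 24 h library and 98.3% and 97.8% in the 0 h libraries. With the longest transcript, the ratio was 6.37 in each 24 h library against 29.3 and 22.0 in the 0 h libraries, and Bsg was 86.4% of the pair in each 24 h library and 96.7% and 95.7% in the 0 h libraries. The 2 transporters together stood to the 2 ancillary proteins together at 0.118 and 0.116 per kb at 24 h, against 0.141 and 0.144 per kb at 0 h.

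Per kilobase of exon, the order of the levels at 24 h was Bsg (mean 272.4 CPM per kb), Ldhb (235.6), Ldha (109.4), Slc16a1 (30.52), Emb (21.52) and Slc16a3 (3.945). At 0 h it was Bsg (mean 326.6 CPM per kb), Ldha (217.9), Ldhb (106.5), Slc16a1 (34.28), Slc16a3 (13.19) and Emb (6.495). No neighbours in either order overlapped in their libraries. Ldha and Ldhb exchanged ranks between the groups, and so did Emb and Slc16a3 at the low end. The order leans on the lengths used. With the longest transcript, Emb (50.84 CPM per kb) stood above Slc16a1 (30.52) at 24 h, and at 0 h the ranges of Ldha and Bsg overlapped, as did those of Slc16a3 and Emb.

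**Figure D3:**
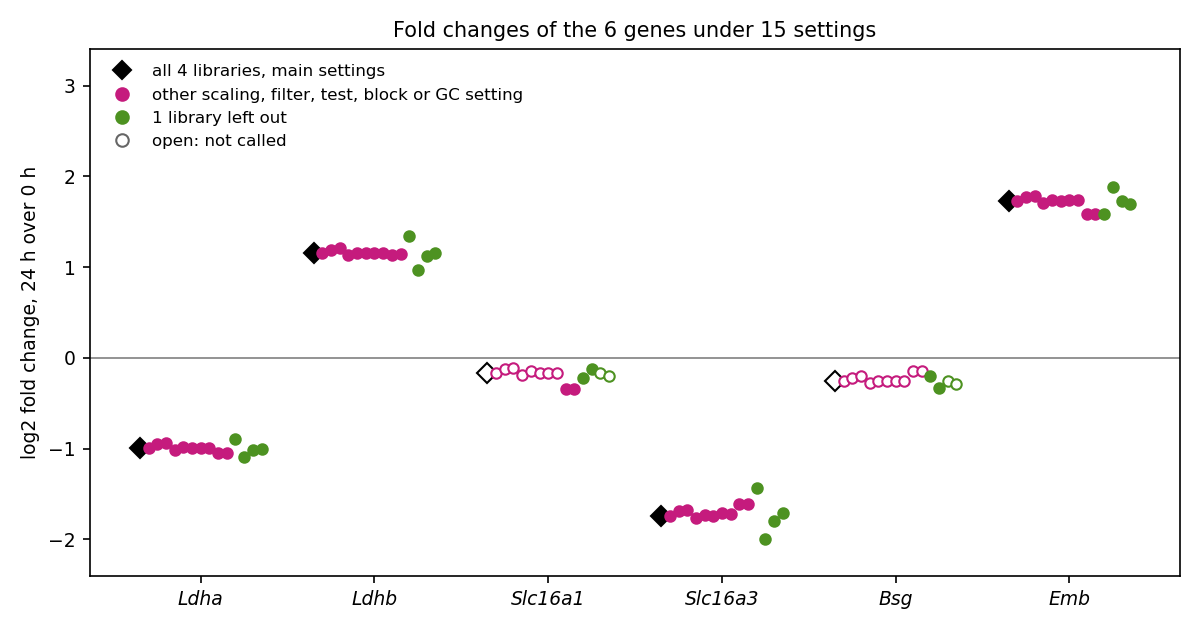
Log2 fold change of 24 h over 0 h (vertical axis) for the 6 genes under all 15 settings, with filled points called and open points not called. Slc16a1 and Bsg lie close to 0 and change call with the setting, while the other 4 keep their direction and their call; the leave-one-out points spread most for Slc16a3, from -2.00 to -1.43.

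The genes with profiles most like each member were sought among 11309 genes with a mean of at least 5 CPM, by the Euclidean distance between centred log2 CPM over the 4 libraries. With 4 libraries in 2 groups, such a distance mostly follows the difference between the groups, and it is a description. The nearest to Ldha were Rnd1, Slc17a9 and Aldh1a2 (distances 0.039, 0.056 and 0.072 log2 units), and the nearest to Ldhb were Mcam, Cpne2 and Fah (0.078, 0.093 and 0.106). The nearest to Slc16a3 were Foxd3, Grin1 and Cdx1 (0.074, 0.133 and 0.135), and those to Emb were Plxdc2, Sord and Ano3 (0.113, 0.148 and 0.165). Foxd3, for example, had 10.36 and 9.146 CPM at 24 h, against 40.46 and 27.45 CPM at 0 h, with 0 h replicate A above 0 h replicate B as in Slc16a3. Slc16a1 and Bsg, with small differences, had closer neighbours: Fan1, Slain2 and Yrdc within 0.015 of Slc16a1, and Glul, Slc39a6 and Mycl within 0.017 of Bsg.

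The other genes of the pathway were read from lists, with the test run over all 18005 genes. These lists were chosen with earlier results of these data known, so their counts and p-values are a description. The share of all genes called moved with the setting, and a list's count is to be read against it: beside the 6.8% of edgeR with all 4 libraries, it was 11.5% with DESeq2, 6.03% with limma voom and 29.1% with GC content and length fitted. It was 32.2% leaving out 0 h replicate A, 50.2% leaving out 0 h replicate B, 3.02% leaving out 24 h replicate A and 2.71% leaving out 24 h replicate B. Of 3 other lactate dehydrogenase or related genes tested, edgeR called none. None had an unadjusted p under 0.05 in edgeR, against 25.8% of all genes. DESeq2 and limma voom called none either. Their summed level was 25.88 and 24.04 CPM at 24 h and 24.19 and 26.89 CPM at 0 h, low beside Ldha and Ldhb. Most of that sum was Uevld, a related gene and not an established lactate dehydrogenase. Uevld had 20.73 and 20.11 CPM at 24 h and 18.48 and 21.40 CPM at 0 h. Ldhd had 1.67 and 1.368 CPM at 24 h and 1.858 and 2.037 CPM at 0 h. Of the testis form Ldhc there were 3.482 and 2.564 CPM at 24 h and 3.855 and 3.457 CPM at 0 h, and Ldhal6b had 0 counts in every library.

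Of 14 other monocarboxylate transporter genes 8 were tested, and 1 rose, where 4.15% of all genes tested were called higher. It was Slc16a6 (MCT7), known in zebrafish as a ketone body carrier. Slc16a6 had 45.08 and 41.31 CPM at 24 h against 24.57 and 25.70 CPM at 0 h. Its log2 fold change was 0.78 (SE 0.12, adjusted p = 0.015, edgeR), and the median of the 8 was 0.33. Slc16a6 overlaps Amz2 on the opposite strand, so its counts are uncertain. It was not called when either 24 h library was left out, and 3 genes of the list were called higher when either 0 h library was left out, with 1 called lower leaving out 0 h replicate A. Nptn (neuroplastin), a relative of basigin and embigin that can also escort transporters, was not called (68.89 and 72.08 CPM at 24 h, 58.27 and 68.91 CPM at 0 h). The lactate receptor gene Hcar1 had 0 counts in every library.

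Upstream of pyruvate, 6 of 18 genes of glucose uptake and glycolysis fell and none rose, where 2.65% of all genes tested were called lower. Their median log2 fold change was -0.51, with 16 of 18 below 0. Aldoc, an aldolase, had 21.68 and 21.39 CPM at 24 h against 53.47 and 44.05 CPM at 0 h (log2 fold change -1.18, SE 0.14, adjusted p = 0.00782, edgeR). The phosphofructokinase Pfkp had 284.2 and 282.3 CPM at 24 h against 466.6 and 437.2 CPM at 0 h (-0.67, SE 0.10, adjusted p = 0.0124, edgeR), and it overlaps Pitrm1 on the opposite strand. The triose phosphate isomerase Tpi1 had 311.7 and 308.1 CPM at 24 h against 486.6 and 453.9 CPM at 0 h (-0.60, SE 0.10, adjusted p = 0.0171, edgeR). The glucose transporter Slc2a1 had 224.2 and 217.8 CPM at 24 h against 425.6 and 332.2 CPM at 0 h (-0.78, SE 0.13, adjusted p = 0.0217, edgeR). The other 2 were Aldoa and Pkm, at -0.58 each, and Pkm (adjusted p = 0.0497, edgeR) was not called with library size only, with a filter of at least 1 CPM in 2 libraries or with limma voom. The count of 6 was unstable: it was 15 leaving out 0 h replicate A, 14 leaving out 0 h replicate B and 1 leaving out either 24 h library, when Aldoc alone was called. It was 10 with DESeq2 and 15 with GC content and length fitted. Gapdh and Pgk1, named after their values were seen, were low for glycolytic enzymes. Gapdh had 15.30 and 15.98 CPM at 24 h and 20.62 and 18.72 CPM at 0 h, and Pgk1 had 14.49 and 14.81 CPM at 24 h and 15.93 and 19.42 CPM at 0 h. For Gapdh and Pgk1, 25.12% and 53.88% of the 50-base windows also occur in other genes; the part of such copies in these levels was not tested.

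**Figure D4:**
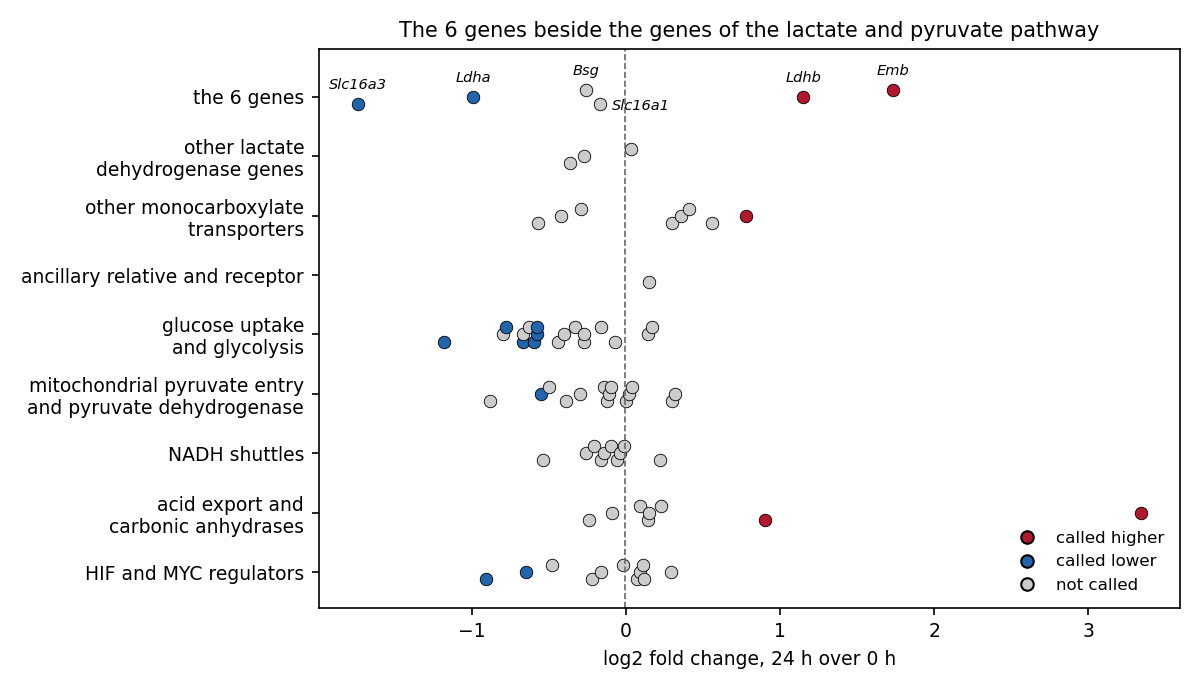
Log2 fold change of 24 h over 0 h (horizontal axis) for the 6 genes (top row) and for the tested genes of 8 pathway lists, 1 point per gene, coloured by call, with the median of all genes as a dashed line at -0.007. Glycolysis genes lie mostly left of the line with 6 called lower, while Slc16a3 lies left of every pathway gene and Ldha of all but Aldoc, and Ldhb and Emb lie right of all but Car4.

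Past pyruvate, 1 of 14 genes of mitochondrial pyruvate entry and pyruvate dehydrogenase fell and none rose (median log2 fold change -0.12). That is close to the 6.8% of all genes called, so nothing is read from the count. The gene called was Pdk1, a kinase that inhibits pyruvate dehydrogenase, with 28.12 and 29.70 CPM at 24 h against 42.04 and 42.84 CPM at 0 h (-0.55, SE 0.11, adjusted p = 0.0344, edgeR). None fell when either 24 h library was left out. Of the 0 h libraries, leaving out A gave 6 that fell and 2 that rose, and leaving out B gave 5 that fell and 2 that rose, against 32.2% and 50.2% of all genes called in either direction. DESeq2 called 3 lower, and with GC content and length fitted 6 were lower and 1 was higher. In the shuttles that carry NADH electrons into mitochondria, the other route to NAD+, edgeR called none of 10 genes, with 1 at an unadjusted p under 0.05 against 25.8% of all genes (median log2 fold change -0.12, 9 of 10 below 0). DESeq2 called 1 of them lower and limma voom none, and edgeR called 4 lower with GC content and length fitted, 3 leaving out 0 h replicate A and 4 leaving out 0 h replicate B.

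Of 8 genes of acid export and carbonic anhydrases, 2 rose and none fell (median log2 fold change 0.15). Of all genes tested, 4.15% were called higher and 2.65% lower. The 2 that rose encode carbonic anhydrases. The others of that family in the list, Car2, Car9 and Car14, were not called (log2 fold changes 0.23, -0.24 and 0.15). Car12 had 4.689 and 4.509 CPM at 24 h against 2.234 and 2.695 CPM at 0 h (0.90, SE 0.20, adjusted p = 0.0419, edgeR). Car4 had 19 and 13 counts at 24 h against 1 and 2 counts at 0 h, so its size is imprecise (3.34, SE 0.71, adjusted p = 0.0388, edgeR). DESeq2 gave Car4 no adjusted p, and it was not tested with a filter of at least 1 CPM in 2 libraries. Neither Car12 nor Car4 was called when either 24 h library was left out. More genes of this list were called when either 0 h library was left out, but so was a larger share of all genes.

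Hypoxia-inducible factors (HIF) are known regulators of Ldha and Slc16a3, and MYC is one of Ldha. Of 11 genes that encode or control these factors, 2 fell and none rose (median log2 fold change -0.02). Among all genes tested, 2.65% were called lower and 4.15% higher. Egln1, an oxygen-dependent hydroxylase that marks HIF for degradation, had 28.42 and 28.85 CPM at 24 h against 57.34 and 50.41 CPM at 0 h (-0.91, SE 0.12, adjusted p = 0.0106, edgeR). Epas1, which encodes HIF-2 alpha, had 40.73 and 39.90 CPM at 24 h against 68.77 and 57.32 CPM at 0 h (-0.65, SE 0.13, adjusted p = 0.0309, edgeR). Hif1a had 176.7 and 175.2 CPM at 24 h and 153.5 and 177.6 CPM at 0 h, groups that overlap. Neither Egln1 nor Epas1 was called when either 24 h library was left out. Leaving out 0 h replicate A, 4 genes fell and 2 rose, and leaving out 0 h replicate B, 5 fell and 4 rose, against 32.2% and 50.2% of all genes called in either direction at these settings.

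Cell identity markers were read beside these results. The 11 embryonic stem cell markers summed to 4280 and 4319 CPM at 24 h and 4826 and 4628 CPM at 0 h, so the markers of the labelled cell type were present in every library. Of them 3 fell (Pou5f1, Zfp42 and Utf1) and 1 rose (Lin28a), where 2.65% of all genes tested were called lower and 4.15% higher. Utf1 alone of these 4 was still called when either 24 h library was left out. Zfp42 was also not called with upper quartile scaling or with library size only. Utf1, with a GC content of 63.49%, had a log2 fold change of -0.94. Its size depended on the setting: it was -0.52 with GC content and length fitted and -0.58 leaving out 0 h replicate A. More of the stem cell markers were called when either 0 h library was left out, but so was a larger share of all genes. The 12 feeder fibroblast markers summed to 149.5 and 146.6 CPM at 24 h and 178.6 and 134.2 CPM at 0 h, ranges that overlap. Among the 10 tested, Pdgfrb fell (6.038 and 5.855 CPM at 24 h, 13.58 and 10.55 CPM at 0 h; -1.02, adjusted p = 0.0217, edgeR) and was not called leaving out 24 h replicate B. More of the feeder markers were called when either 0 h library was left out. A larger share of all genes was called there too, above the 6.8% with all 4 libraries. Col1a1 stood at 69.09 and 67.40 CPM at 24 h and 90.08 and 59.63 CPM at 0 h. The matrix genes Lum and Dcn were near 0: Lum had 0 counts in 3 of the 4 libraries and Dcn had 2 to 6 counts. The part of feeder RNA in the lactate genes was not tested.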

How the data were processed

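Messenger RNA of 4 cultures was sequenced as single reads from a stranded kit, per the labels' protocols. Read counts by Ensembl gene were deposited by the authors, without normalization. The submitters' processing notes name TopHat2, HTSeq, DESeq and mm10, with neither roles nor versions, and no source used here gives the annotation release or the strand setting. GENCODE M21 (GRCm38) supplied symbols, coordinates, lengths and GC content, and 563 identifiers without a match held 0.107% of the counts. Promoter windows came from RefSeq on GRCm38.p6.

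Genes passed edgeR's filterByExpr (minimum count 10, minimum total 15), were scaled by TMM, and were compared with the quasi-likelihood test of edgeR 4.0.16 in R 4.3.3 (2-sided, Benjamini-Hochberg, threshold 0.05). CPM were computed from the counts with TMM scaling, and CPM per kb use the union of a gene's exons. A log2 fold change is 24 h over 0 h, and its SE was taken from the F statistic. The test was checked on simulated data. P-values set the group difference against the spread between these samples, with each gene's spread drawn toward that of all genes tested. Leaving out 1 library puts a lone sample in its group, whose spread is then taken from the other group. The members, lists and tests were chosen with earlier results of these data known. Named are all 6 genes, up to 4 called genes of each list in order of p, and the 3 nearest profiles of each member. Shared sequence was searched in 50-base windows of GENCODE transcripts. Alternatives used DESeq2 1.42.0 and limma 3.58.1, other scalings and filters, a replicate block, a GC content and length offset, and each library left out. Figures were drawn with matplotlib 3.10.9.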

Additional observations from a re-analysis of the deposited data

How the results depend on the processing

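Under the 14 alternatives no member changed direction. Ldha (-1.09 to -0.89), Slc16a3 (-2.00 to -1.43), Ldhb (0.97 to 1.34) and Emb (1.59 to 1.88) were called in all 14, Slc16a1 in 4 and Bsg in 2. Over the 5 alternatives run for the ratios (the GC content and length offset and each library left out), the log2 change of the Ldha to Ldhb ratio ran from -2.24 to -2.06, of Slc16a3 to Slc16a1 from -1.88 to -1.21 and of Bsg to Emb from -2.20 to -1.73. The number of genes called moved far more. Against 1225 genes it was 2589 with no filter on low counts, 1994 with DESeq2, 5235 with the GC content and length offset and 506 to 9416 with 1 library left out. Members called lower were 2, and 3 with that offset, and 2 to 4 with 1 library left out. With the replicate block 3253 genes were called, and 6461 with block and offset, where 3 members were called lower. The labels do not say whether same-lettered samples share a clone or day. Deviations of same-lettered samples correlated at 0.053, but 0 h replicate A stood apart by base composition, so this value does not settle it. The share of calls that were higher was 61.1%, and 35.3% with the offset, 47.5% with no filter, 51.1% leaving out 0 h replicate A and 46.2% leaving out 0 h replicate B. The cause of these moves was not tested. Depth did not limit the members, whose lowest count was 954, but 2 libraries a group limit every SD.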
